A study of Homo sapiens with 9 samples.

Results

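MHC class I molecules display peptides from inside the cell to CD8 T cells, and the 9 genes described here encode the core of that display. They were taken by name from the table of gene counts: HLA-B, HLA-C, HLA-E, HLA-F, B2M, TAP1, TAP2, TAPBP and NLRC5. Each name had 1 row among 27673 genes, and all 9 were among the 15551 genes with enough counts to be tested. RNA was sequenced from A498, a cell line established from a human clear cell carcinoma of the kidney (ccRCC). The 9 libraries were 3 biological replicates each of shControl, shBMAL1 and shARNT. All groups carried a lentiviral short hairpin RNA and were kept in puromycin, with a non-targeting hairpin in shControl and 1 hairpin against the named gene in each of the others. In the circadian clock BMAL1 pairs with CLOCK, ARNT is best known as the subunit shared by hypoxia-inducible factors, and the study asked whether BMAL1 acts with HIF2α as ARNT does. The cells were puromycin-selected pools, so each group rests on a single hairpin, and where the replicates separated (culture, extraction or later) is not given beyond the word biological.

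A class I molecule is a heavy chain (such as HLA-B and HLA-C in the classical form, HLA-E, HLA-F and HLA-G in the nonclassical form) bound to β2-microglobulin, the product of B2M. Peptides cut by the proteasome are pumped into the endoplasmic reticulum by the TAP1-TAP2 transporter, and tapasin, the product of TAPBP, bridges the transporter to an empty class I molecule and helps it select a tightly binding peptide. NLRC5 is the transactivator of the class I genes, and it is recruited to their promoters by the RFX, NF-Y and CREB/ATF proteins. Tumours, ccRCC among them, are often examined for these genes because T cells and natural killer cells both read class I at the cell surface.

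Of the 9 genes, 7 lie in the MHC on chromosome 6. In GRCh37 coordinates they were HLA-F (6:29690552-29706305, plus strand), HLA-E (6:30457286-30461971, plus), HLA-C (6:31236526-31239907, minus), HLA-B (6:31321649-31334844, minus), TAP2 (6:32789610-32806516, minus), TAP1 (6:32812986-32821593, minus) and TAPBP (6:33267471-33282061, minus). B2M lies at 15:45003556-45011049 (plus) and NLRC5 at 16:57023397-57117443 (plus). All are annotated as protein coding.

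Promoter sequences, from 250 bases before to 50 bases after the annotated start, were read from RefSeq (GRCh38.p14) for 7 of the 9 genes. HLA-E and NLRC5 had no entry, and TAP1 had 2, of which the one nearer PSMB9 is shown. The windows of 5 genes are shown 5′ to 3′ on the coding strand, as they stand for the classical heavy chains, the light chain, the transporter and tapasin. Capitals mark any of 6 searched motifs on either strand. They were the E-box CACGTG, the core ACGTG of the hypoxia response element, the CCAAT box, the form GAAANNGAA of the interferon-stimulated response element, the core TGACG of the X2 box bound by CREB/ATF, and the κB form GGGGANTCC.
HLA-B, chr6:31357130-31357429 (minus strand): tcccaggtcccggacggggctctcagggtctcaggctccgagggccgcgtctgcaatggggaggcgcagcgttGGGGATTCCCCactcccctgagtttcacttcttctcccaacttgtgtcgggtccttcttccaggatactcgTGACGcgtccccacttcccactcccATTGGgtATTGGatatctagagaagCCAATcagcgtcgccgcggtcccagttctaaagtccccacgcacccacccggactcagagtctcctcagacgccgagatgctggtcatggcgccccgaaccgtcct
HLA-C, chr6:31272043-31272342 (minus strand): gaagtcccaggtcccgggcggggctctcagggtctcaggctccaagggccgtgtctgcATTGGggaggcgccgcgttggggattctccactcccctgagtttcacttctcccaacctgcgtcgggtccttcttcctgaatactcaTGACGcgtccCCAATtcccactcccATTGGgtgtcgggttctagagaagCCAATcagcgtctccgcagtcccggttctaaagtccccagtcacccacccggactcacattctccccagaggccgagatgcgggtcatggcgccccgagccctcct
B2M, chr15:44711267-44711566 (plus strand): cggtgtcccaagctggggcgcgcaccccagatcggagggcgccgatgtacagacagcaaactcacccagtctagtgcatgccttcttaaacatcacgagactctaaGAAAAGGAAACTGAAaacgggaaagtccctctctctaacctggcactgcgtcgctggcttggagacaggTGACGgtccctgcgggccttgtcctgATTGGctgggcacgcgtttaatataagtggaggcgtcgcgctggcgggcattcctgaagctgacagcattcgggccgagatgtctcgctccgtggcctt
TAP1, chr6:32853655-32853954 (minus strand): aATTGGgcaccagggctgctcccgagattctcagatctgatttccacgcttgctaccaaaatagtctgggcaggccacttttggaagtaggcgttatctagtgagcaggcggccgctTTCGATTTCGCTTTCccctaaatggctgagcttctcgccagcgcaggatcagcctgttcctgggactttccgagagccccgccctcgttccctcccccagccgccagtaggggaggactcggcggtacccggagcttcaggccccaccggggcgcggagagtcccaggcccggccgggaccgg
TAPBP, chr6:33314029-33314328 (minus strand): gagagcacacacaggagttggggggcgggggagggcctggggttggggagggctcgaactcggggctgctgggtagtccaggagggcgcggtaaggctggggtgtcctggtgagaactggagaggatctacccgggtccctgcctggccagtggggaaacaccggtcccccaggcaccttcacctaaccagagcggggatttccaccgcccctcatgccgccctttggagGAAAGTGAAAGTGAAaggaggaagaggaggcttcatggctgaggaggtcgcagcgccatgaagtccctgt

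None of the 7 windows held the letters of the E-box or of the hypoxia response core, which occurred in 7.43% and 21.6% of 27305 promoters of the same length. Every E-box also contains the hypoxia core. The interferon-response form was in 5 of the 7 windows (HLA-F, B2M, TAP1, TAP2 and TAPBP) and in 8.29% of all promoters. CCAAT was in 5 (HLA-B, HLA-C, HLA-F, B2M and TAP1) and in 35.7% of all promoters, and the X2 core was in 4 (HLA-B, HLA-C, B2M and TAP2) and in 25.0%. Only the HLA-B window among the 7 held the κB form, which occurred in 1.51% of all promoters. The HLA-B and HLA-C windows were identical at 269 of 304 aligned positions (88.5%), so these heavy chains share most of the letters shown. The TAP1 window overlapped by 13 bases with that of PSMB9, an immunoproteasome gene that is transcribed in the opposite direction. These are matches of exact letters in a fixed window and do not show that a factor binds there. Other forms of the same elements were not searched, so a window without a match is not shown to lack the element.

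The targeted transcripts were lower in their own groups. ARNT had 1603, 1667 and 1738 counts in shControl and 369, 361 and 395 in shARNT, and BMAL1, listed as ARNTL, had 556, 524 and 536 counts in shControl and 185, 191 and 140 in shBMAL1. ARNT was also lower in shBMAL1 (1128, 1147 and 1038 counts) and ARNTL higher in shARNT (948, 993 and 893 counts). Library totals ranged from 35269857 to 36099083 counts. CPM below is the usual depth-normalised read count, with library sizes scaled by the TMM method of edgeR. The scaling factors of the shControl libraries lay between 0.932 and 0.944, those of shBMAL1 between 0.961 and 0.972, and those of shARNT between 1.10 and 1.11. Without this scaling the median change over all genes moved, on the log2 scale, by 0.24 in shARNT against shControl, by 0.19 in shARNT against shBMAL1 and by 0.05 in shBMAL1 against shControl. Of 10 renal epithelial markers, 9 reached 1 CPM in at least 1 library and EPCAM did not. Their summed level ranged from 8172 to 8233 CPM over the shControl libraries, from 6052 to 6531 over shBMAL1, and from 2241 to 2414 over shARNT. VIM made up most of that sum in shControl and shBMAL1, with means of 5974 and 4309 CPM, but not in shARNT, where its mean was 812 CPM. In shARNT the log2 change of PAX8 was 1.48 (adjusted p = 1.99e-14) and KRT18 was not called (-0.01, adjusted p = 0.872). Of the 10 markers, 1 was higher and 8 were lower in shARNT at an adjusted p under 0.1, with a median of -1.01. Under library size alone 2 were higher and 7 lower there. In shBMAL1 2 were higher and 7 lower, with a median of -0.37. Of all tested genes under TMM scaling, 40.5% were higher and 41.3% lower in shARNT, and 31.9% and 31.5% in shBMAL1. Of 11 leukocyte markers, 8 stayed under 1 CPM in every library, including the defining PTPRC, CD3E, CD2 and MS4A1. The leukocyte sum (1807 to 1928, 1770 to 1880 and 151 to 162 CPM) was nearly all CD68, a lysosomal gene. All 4 endothelial markers stayed under 1 CPM, with a summed level of at most 0.41 CPM, and the fibroblast sum, mostly COL1A1, ranged from 231 to 245 CPM over shControl, from 34.2 to 37.3 over shBMAL1, and from 40.7 to 50.7 over shARNT. The part of these marker levels in the results below was not tested.

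**Figure D1:**
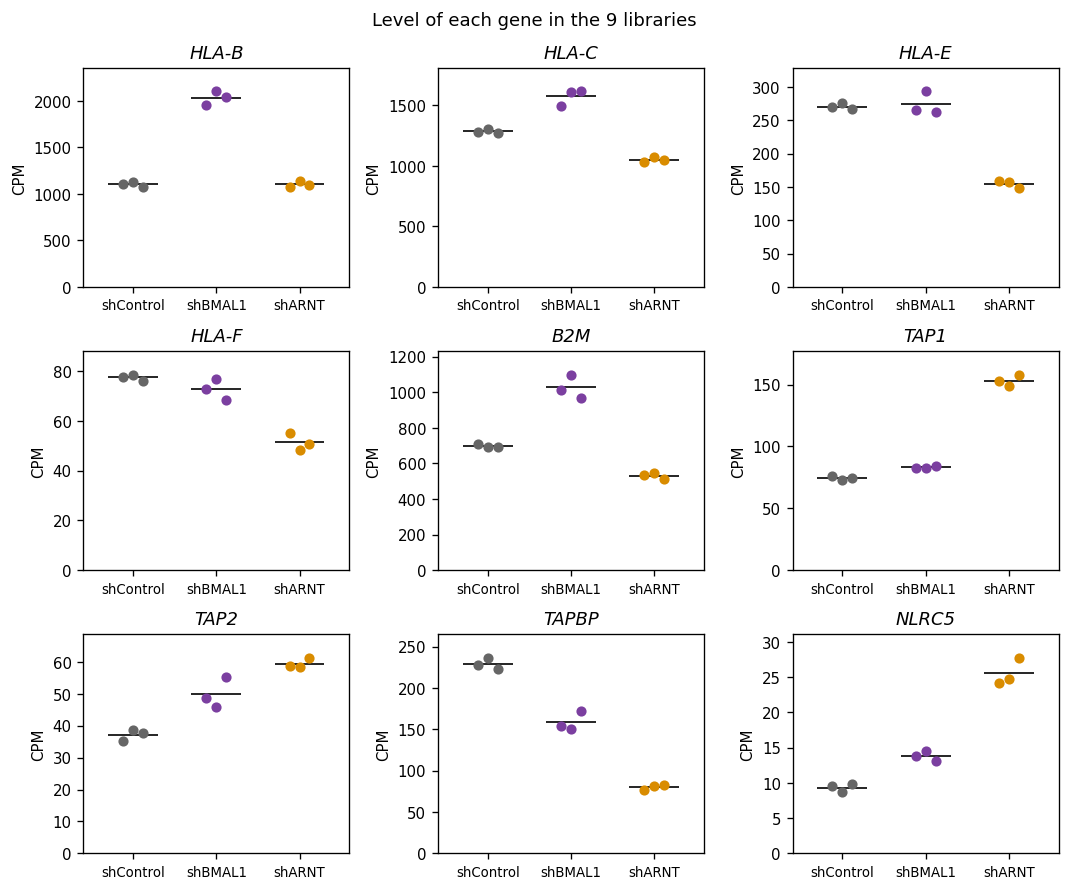
Level of each gene (CPM, linear axis from 0) in the 9 libraries. Points are single libraries in the order of replicates 1 to 3 and bars are group means. HLA-B, HLA-C and B2M are highest in shBMAL1, TAP1, TAP2 and NLRC5 are highest in shARNT, and TAPBP steps down from shControl through shBMAL1 to shARNT.

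Depletion of BMAL1 was followed by higher levels of the classical heavy chains HLA-B and HLA-C, their partner B2M, TAP2 and NLRC5. TAP1 rose slightly and tapasin fell. In shBMAL1 against shControl, 6 of the 9 genes were higher and 1 was lower at an adjusted p under 0.1 (edgeR quasi-likelihood F-test with Benjamini-Hochberg adjustment over 15551 genes, as for every adjusted p here). In the same contrast 63.3% of all tested genes were called, 31.9% higher and 31.5% lower. The median log2 fold change of the 9 was 0.29, against -0.0015 for all genes. Depletion of ARNT gave another arrangement, with lower HLA-C, HLA-E, HLA-F, B2M and TAPBP and higher TAP1, TAP2 and NLRC5. There 3 genes were higher and 5 lower, where 81.8% of all genes were called, 40.5% higher and 41.3% lower. Scaled by library size alone, 4 of the 9 were higher and 4 lower there, and the median of all genes was 0.23. The median of the 9 was -0.29, against -0.01 for all genes. Both contrasts use the same shControl libraries. The depletions were therefore also compared directly: in shARNT against shBMAL1 all 9 genes were called, 3 higher and 6 lower, where the shares of all genes were 81.2%, 40.1% and 41.1%. The median absolute log2 difference of the 9 in that direct contrast was 0.88, against 0.64 for all genes. It was 0.42 against 0.32 in shBMAL1 against shControl. In shARNT against shControl it was 0.68 against 0.66, close to that of all genes. Calls were common throughout, so the sizes and directions of the single genes below carry more than the counts. In bulk RNA, fewer cells expressing a gene and less RNA of it per cell cannot be told apart.

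HLA-B, a classical heavy chain that presents peptides to CD8 T cells, had 36860, 37118 and 35568 counts in shControl, 67047, 72404 and 69367 in shBMAL1, and 42508, 45150 and 43336 in shARNT. This was 1104 ± 25.5 CPM (SD, n = 3, as for every ± below), 2034 ± 70.5 CPM and 1102 ± 35.4 CPM. The shBMAL1 libraries were far above all others, and the shControl and shARNT libraries overlapped in CPM. HLA-B rose by 0.88 on the log2 scale in shBMAL1 (SE 0.0360, adjusted p = 6.05e-14), a 1.84-fold rise. In shARNT its change was -0.0021 (adjusted p = 0.96), with a 95% interval of -0.08 to 0.07. Scaled by library size alone, HLA-B was called higher in shARNT (0.24, adjusted p = 4.52e-06), a value close to the shift of all genes under that scaling. Set directly against shBMAL1, shARNT differed by -0.88 (SE 0.0359, adjusted p = 7.28e-15).

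HLA-C, the classical heavy chain that is also the main ligand of inhibitory receptors (KIR) on natural killer cells, moved less. It had 42482, 42998 and 41877 counts in shControl, 51208, 55518 and 54885 in shBMAL1, and 41012, 42347 and 41547 in shARNT, or 1283 ± 20.2, 1574 ± 66.3 and 1051 ± 18.0 CPM. No library of any group overlapped in CPM with a library of another. HLA-C rose by 0.29 on the log2 scale in shBMAL1 (SE 0.0350, adjusted p = 4.65e-07) and fell by 0.29 in shARNT (SE 0.0350, adjusted p = 2.52e-07). The fall in shARNT depends on the scaling, since under library size alone it was -0.05 (adjusted p = 0.177). The direct difference, -0.58 (SE 0.0350, adjusted p = 4.36e-12), stayed called under every scaling tried.

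Of the nonclassical chains, HLA-E and HLA-F behaved otherwise. HLA-G took the directions of HLA-C, with log2 changes of 0.42 for shBMAL1 and -0.46 for shARNT, both called. Under library size alone the HLA-G change for shARNT was -0.22 and was not called. HLA-E, which presents leader peptides of other class I chains to the NKG2A receptor of natural killer cells, had 8982, 9066 and 8807 counts in shControl, 9063, 10100 and 8936 in shBMAL1, and 6271, 6250 and 5880 in shARNT. Its levels were 270.6 ± 4.44, 273.7 ± 16.9 and 154.8 ± 5.79 CPM, with shBMAL1 overlapping shControl and all shARNT libraries below both. The change was 0.02 in shBMAL1 (adjusted p = 0.774, 95% interval -0.08 to 0.11) and -0.81 in shARNT (SE 0.0446, adjusted p = 1.12e-12). HLA-F, a chain that is found at the surface also without peptide, had 2586, 2588 and 2518 counts in shControl, 2496, 2648 and 2329 in shBMAL1, and 2183, 1917 and 2021 in shARNT, or 77.5 ± 1.20, 72.8 ± 4.20 and 51.5 ± 3.36 CPM. In shBMAL1 its libraries overlapped with shControl and its change of -0.09 did not pass the test (adjusted p = 0.165, interval -0.20 to 0.02). In shARNT HLA-F fell by 0.59 (SE 0.0550, adjusted p = 4.96e-09), again with no overlap. Against shBMAL1, the shARNT libraries differed by -0.82 for HLA-E (adjusted p = 8.02e-13) and by -0.50 for HLA-F (adjusted p = 6.33e-08).

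HLA-F overlaps HLA-F-AS1, a noncoding gene on the other strand, over 11928 bases, and the table split reads between them: the sum of both rows was a whole number within 0.0015 reads in 9 of 9 libraries, while HLA-F alone was fractional in 8. The antisense row took 3.47% to 8.79% of the sum. With both rows summed, a choice made after seeing the data, the change of the pair in shBMAL1 was -0.13 (adjusted p = 0.0397) and was called. At the read length of 100 bases, the share of 100-base windows found also in another heavy chain was 0% for HLA-B and HLA-F, 0.277% for HLA-C, 0.613% for HLA-E and 1.23% for HLA-G. Windows found in any other annotated gene, overlapping records included, were more frequent, at 173 of 1437 for HLA-B and, as shares, 24.4% for HLA-F, 18.6% for TAP1, 34.7% for TAP2 and 38.7% for TAPBP, and none were found for B2M and NLRC5. How reads from such windows were counted is not given in the sources used here. The alleles of A498 were not examined, and their distance from the reference can change how many reads each row received.

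The rows of HLA-B, HLA-C, HLA-E, HLA-F and HLA-G were therefore also summed. The sum of these 5 chains was 91123, 92000 and 88978 counts in shControl, 130090, 140968 and 135841 in shBMAL1, and 92175, 95870 and 92945 in shARNT. In CPM the shBMAL1 libraries were above and the shARNT libraries below every shControl library. The sum rose by 0.53 on the log2 scale in shBMAL1 (SE 0.0337, adjusted p = 4.73e-11) and differed by -0.75 between shARNT and shBMAL1 (SE 0.0337, adjusted p = 4.02e-14). In shARNT it fell by 0.21 (SE 0.0336, adjusted p = 7.90e-06), a direction that turned with library size as the only scaling (0.024, adjusted p = 0.52).

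B2M, the light chain without which class I does not reach the surface stably, had 23508, 22712 and 22818 counts in shControl, 34612, 37843 and 32937 in shBMAL1, and 21180, 21498 and 20437 in shARNT. Levels were 695.6 ± 9.12, 1026 ± 66.2 and 531.1 ± 14.7 CPM, and no group overlapped another. B2M rose by 0.56 in shBMAL1 (SE 0.0411, adjusted p = 4.50e-10) and fell by 0.39 in shARNT (SE 0.0412, adjusted p = 3.33e-08), and the direct difference of -0.95 (adjusted p = 2.20e-14) was among the widest of the 9.

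**Figure D2:**
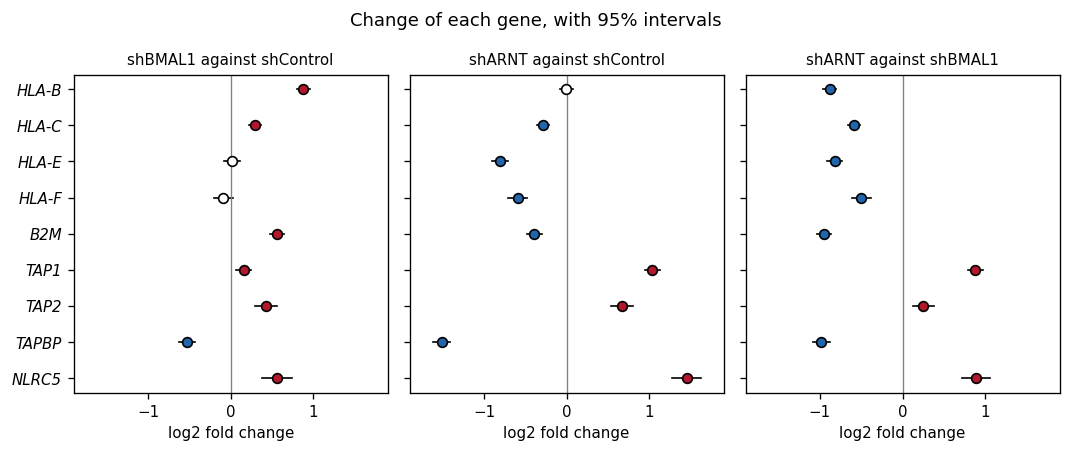
Log2 fold change of each gene in the 3 contrasts, with 95% intervals as lines. Red points were called higher, blue points lower, and open points were not called at an adjusted p of 0.1. HLA-B stands at 0.88 in shBMAL1 and at zero in shARNT, and TAPBP is negative in all panels.

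The make-up of these 5 chains was examined as shares within a library, which no scaling between libraries can move (chosen after seeing the data, and described without a test). Of their summed counts, HLA-B held between 40.0% and 40.5% in the shControl libraries, between 51.1% and 51.5% in shBMAL1, and between 46.1% and 47.1% in shARNT. Its share was thus higher in both depletions than in any shControl library. HLA-C held 46.8% ± 0.230 in shControl, 39.7% ± 0.595 in shBMAL1 and 44.5% ± 0.267 in shARNT, and HLA-E made up 9.87% ± 0.0244, 6.90% ± 0.298 and 6.55% ± 0.240. Per HLA-E count there were 4.08 ± 0.0352 HLA-B counts in shControl, 7.44 ± 0.300 in shBMAL1 and 7.12 ± 0.308 in shARNT, with overlap between the depletions and none with shControl.

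TAP1 and TAP2 form the peptide transporter, and both were highest in shARNT. TAP1 had 2534, 2395 and 2469 counts in shControl, 2821, 2842 and 2862 in shBMAL1, and 6045, 5882 and 6273 in shARNT, or 74.5 ± 1.69, 83.0 ± 0.950 and 153 ± 4.69 CPM. The shControl and shBMAL1 libraries were close but did not overlap, and the shARNT libraries stood far above both. TAP1 rose by 0.16 in shBMAL1 (SE 0.0431, adjusted p = 0.00418) and by 1.04 in shARNT (SE 0.0425, adjusted p = 7.85e-15), and the direct difference was 0.88 (SE 0.0421, adjusted p = 9.74e-14). TAP1 reads were shared with TAPSAR1, a noncoding antisense gene of the locus: the sum of both rows was whole in 9 of 9 libraries and TAPSAR1 held 11.4% to 18.1% of it.

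TAP2 had 1172, 1272 and 1249 counts in shControl, 1668, 1581 and 1876 in shBMAL1, and 2325, 2308 and 2431 in shARNT, or 37.2 ± 1.79, 49.9 ± 4.74 and 59.4 ± 1.58 CPM. The groups stepped upwards without overlap. TAP2 rose by 0.42 in shBMAL1 (SE 0.0639, adjusted p = 1.03e-05) and by 0.68 in shARNT (SE 0.0631, adjusted p = 5.06e-09), and the depletions differed by 0.25 (SE 0.0618, adjusted p = 0.00105). The subunits therefore did not move in proportion. There were 2.01 ± 0.142 TAP1 counts per TAP2 count in shControl, 1.67 ± 0.137 in shBMAL1 and 2.58 ± 0.0261 in shARNT, and shARNT lay above every other library.

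TAPBP, which encodes tapasin, went the other way from the transporter it binds. Its counts were 7594, 7783 and 7348 in shControl, 5280, 5172 and 5851 in shBMAL1, and 3051, 3204 and 3290 in shARNT, or 229 ± 7.02, 159 ± 11.6 and 80.3 ± 3.00 CPM. All libraries of a group lay below all of the group before it. TAPBP fell by 0.53 in shBMAL1 (SE 0.0488, adjusted p = 1.44e-08) and by 1.51 in shARNT (SE 0.0503, adjusted p = 2.74e-16), to 0.351 times the control level. The direct difference was -0.98 (SE 0.0501, adjusted p = 2.86e-13). Within libraries, TAP1 counts per TAPBP count were 0.326 ± 0.0157 in shControl, 0.524 ± 0.0314 in shBMAL1 and 1.91 ± 0.0728 in shARNT. The 2 genes lie on the same strand of the MHC, and both promoter windows shown above hold the interferon-response form.

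**Figure D3:**
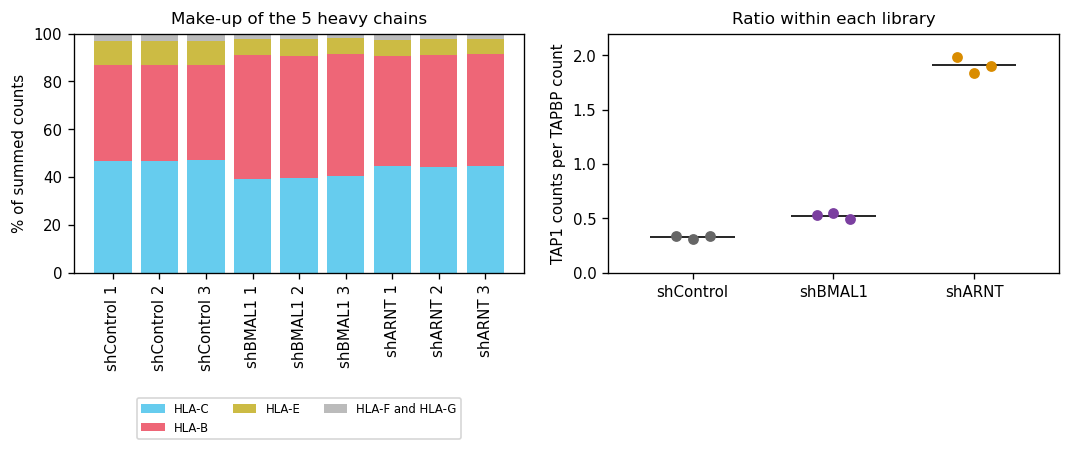
Left, the share held by each chain (% of the summed counts of HLA-B, HLA-C, HLA-E, HLA-F and HLA-G) in each library. Right, TAP1 counts per TAPBP count, with points for libraries and bars for group means. The mean HLA-B share is 40.3% in shControl and 51.3% and 46.6% in shBMAL1 and shARNT, and the TAP1 to TAPBP ratio goes from 0.326 to 0.524 and 1.91.

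NLRC5, the class I transactivator, was the least abundant of the 9. It had 316, 286 and 324 counts in shControl, 473, 499 and 444 in shBMAL1, and 956, 980 and 1100 in shARNT, or 9.33 ± 0.578, 13.8 ± 0.716 and 25.5 ± 1.91 CPM. The groups did not overlap and rose in that order. Its log2 fold changes were 0.56 in shBMAL1 (SE 0.0869, adjusted p = 1.36e-05) and 1.45 in shARNT (SE 0.0832, adjusted p = 1.93e-12), with 0.89 between the depletions (SE 0.0796, adjusted p = 2.67e-09). In shARNT the transcript of the transactivator was thus at its highest while HLA-C, HLA-E, HLA-F and B2M were at their lowest.

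Across the 9 libraries, the closest pairs by Pearson's r of log2 CPM were HLA-C with B2M (0.98), HLA-E with HLA-F (0.97), TAP1 with NLRC5 (0.96) and HLA-F with TAPBP (0.93). TAPBP ran opposite to NLRC5 (-0.99) and to TAP1 (-0.97), and HLA-E opposite to TAP1 (-0.98). These values describe 9 points that fall into 3 groups and share their scaling. Among 11039 genes whose log2 CPM averaged 2 or more, the patterns most like the mean of the 9 standardized genes were those of KRT15, PGK1 and OLA1 (r of 0.995 each) and of GPR126 and POPDC3 (0.994 each). Genes of the 9 that ran opposite to each other partly cancel in that mean. Likeness to the mean is therefore not likeness to each of the 9.

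Levels between genes were compared per kilobase of the canonical transcript, as CPM per kb. In shControl the order was HLA-C (832), B2M (738), HLA-B (719), HLA-E (106), TAPBP (66.4), HLA-F (52.4), TAP1 (27.8), TAP2 (6.60), HLA-G (4.97) and NLRC5 (1.38). Of neighbours in that order, the ranges of B2M and HLA-B overlapped. In shBMAL1 HLA-B (1324 ± 45.9 CPM per kb) lay above HLA-C (1021 ± 43.0), and the ranges of B2M and HLA-C overlapped, as did those of HLA-F and TAPBP. HLA-B also lay above HLA-C in shARNT (718 ± 23.0 and 682 ± 11.7), without overlap. In shARNT TAP1 (57.0 ± 1.75) reached the level of HLA-E (60.8 ± 2.27), with overlapping ranges, and lay above HLA-F (34.8 ± 2.27) and TAPBP (23.3 ± 0.868). NLRC5 (3.77 ± 0.281) overlapped with HLA-G (3.62 ± 0.478) there. The transcript levels per length of TAP1 and TAPBP thus changed places between shControl and shARNT.

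The steps before the transporter were read from lists of pathway genes. Of all tested genes, 31.9% were higher and 31.5% lower in shBMAL1, and 40.5% and 41.3% in shARNT. Counts from these lists and from those below are to be read beside these shares. The shares hold for TMM scaling, and those under library size alone are not given. The proteasome supplies the peptides, and its interferon-inducible subunits (PSMB8, PSMB9, PSMB10) and activator (PSME1, PSME2, with PSME3 as the nuclear form) change the cuts it makes. Of these 6 genes, 5 were higher and PSME3 lower in shBMAL1, and all 6 were higher in shARNT. PSMB9, the neighbour of TAP1, went from 14.7 ± 0.748 CPM in shControl to 23.6 ± 1.54 in shBMAL1 and 43.2 ± 3.03 in shARNT, a rise of 0.68 (adjusted p = 1.62e-07) and of 1.55 (adjusted p = 6.19e-14). PSMB10 rose by 0.60 and 0.77 (adjusted p = 4.08e-08 and 2.48e-10), and PSMB8, which lies beside TAP1 on the other side, by 0.27 and 0.23 (adjusted p = 7.96e-05 and 0.000214). PSME3 fell by 0.33 in shBMAL1 (adjusted p = 3.34e-06) and rose by 1.20 in shARNT (adjusted p = 1.95e-15). Of the 3 constitutive catalytic subunits, 2 were higher in each depletion, and PSMB6, the subunit that PSMB9 replaces, rose by 0.51 (adjusted p = 2.98e-09) and 1.42 (adjusted p = 5.25e-17). PSMB5 was lower in shARNT (-0.16, adjusted p = 0.00200), a direction that turned under library size alone (0.08).

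Peptide trimming and loading genes were mostly higher in shBMAL1 and mixed in shARNT. Of 10 genes, 8 were higher and 0 lower in shBMAL1, and 4 were higher and 6 lower in shARNT, with medians of 0.39 and -0.54. Scaling by library size alone left these counts as they were. Over all genes, 31.9% were higher and 31.5% lower in shBMAL1, and 40.5% and 41.3% in shARNT. The trimming enzyme ERAP1 of the endoplasmic reticulum had 40.2 ± 1.53 CPM in shControl, 92.0 ± 3.28 in shBMAL1 and 26.3 ± 2.61 in shARNT, a rise of 1.19 (adjusted p = 2.25e-12) and a fall of 0.61 (adjusted p = 3.30e-08). Its relative ERAP2 rose by 0.36 and fell by 0.51 (adjusted p = 1.64e-07 and 2.79e-10). TAPBPL, the tapasin-related peptide editor, rose by 0.70 in shBMAL1, where TAPBP itself fell, and fell by 1.02 in shARNT (adjusted p = 7.82e-07 and 3.71e-09). The peptide-loading chaperones CALR and PDIA3 rose by 0.63 and 0.39 in shBMAL1 (adjusted p = 7.41e-12 and 9.49e-08) and fell by 0.57 and 1.30 in shARNT (adjusted p = 5.72e-12 and 1.76e-16). UGGT1, which checks the folding of class I glycoproteins, rose by 0.40 and fell by 0.87 (adjusted p = 7.61e-07 and 2.01e-12). CANX, the chaperone of newly made heavy chains, was 0.00 in shBMAL1 (adjusted p = 0.941) and 0.09 in shARNT (adjusted p = 0.0244). The cytosolic peptidases NPEPPS and TPP2 rose in both, by 0.59 and 0.39 in shBMAL1 (adjusted p = 3.44e-11 and 2.78e-06) and by 1.05 and 0.61 in shARNT (adjusted p = 5.88e-16 and 1.22e-09). In the direct contrast 4 of the 10 were higher and 6 lower in shARNT, with a median of -1.04, where the shares of all genes were 40.1% and 41.1%. ERAP1 there differed by -1.81 and PDIA3 by -1.69 (adjusted p = 6.37e-16 and 2.83e-18).

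**Figure D4:**
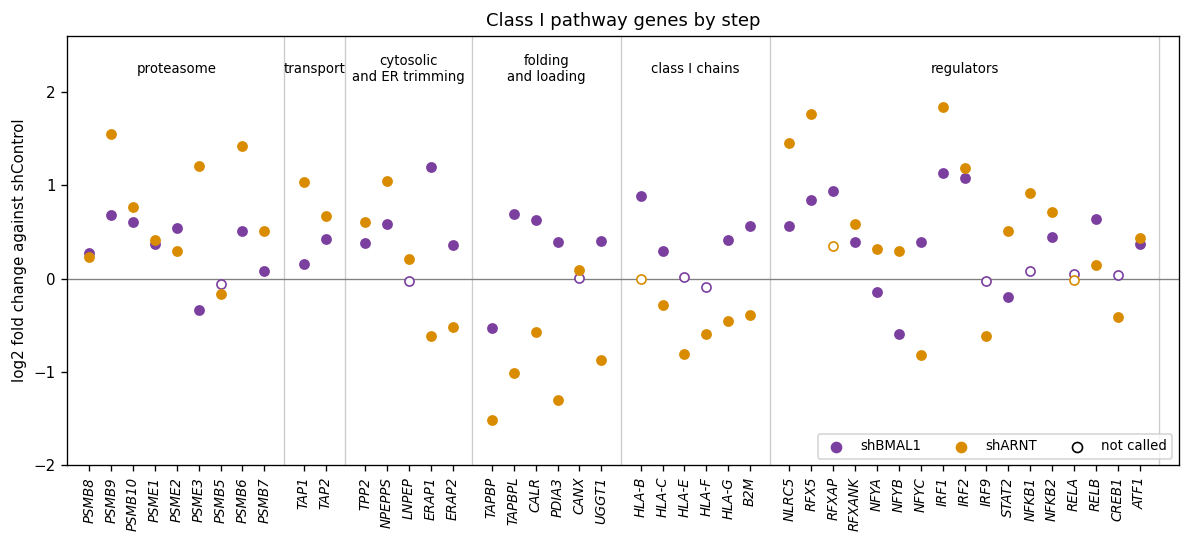
Log2 fold change against shControl (vertical axis) for genes of the class I pathway, grouped by step. Purple is shBMAL1, orange is shARNT, and open points were not called. In shARNT most proteasome genes, both transporter genes and most regulators are above zero while tapasin, the other loading genes except CANX and all chains but HLA-B are below. In shBMAL1 tapasin is the only called gene below zero among the transport, trimming, loading and chain genes.

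Among 17 regulators that act at class I promoters, 10 were higher and 3 lower in shBMAL1, and 12 were higher and 3 lower in shARNT. The shares of all genes were 31.9% and 31.5%, and 40.5% and 41.3%. IRF1, an interferon-induced activator that binds the interferon-response element, rose from 15.0 ± 0.400 CPM to 32.8 ± 0.823 in shBMAL1 and 53.4 ± 4.37 in shARNT, by 1.13 and 1.84 (adjusted p = 2.34e-11 and 1.16e-15). RFX5, the DNA-binding subunit that brings NLRC5 to the promoter, rose from 17.7 ± 0.229 to 31.8 ± 1.51 and 60.1 ± 0.341 CPM, by 0.84 and 1.76 (adjusted p = 2.05e-10 and 1.69e-16). IRF2, a relative of IRF1, rose by 1.08 and 1.18 (adjusted p = 8.40e-11 and 3.49e-12). The NF-Y subunits, which bind CCAAT, did not move together. NFYB fell by 0.59 in shBMAL1 and rose by 0.29 in shARNT (adjusted p = 2.90e-05 and 0.00658), while NFYC rose by 0.40 and fell by 0.81 (adjusted p = 2.81e-05 and 9.20e-10). RELA, the κB factor, was not called in either (0.05 and -0.02, adjusted p = 0.429 and 0.739), and NFKB1 was higher in shARNT (0.92, adjusted p = 2.47e-12) and not called in shBMAL1 (0.09, adjusted p = 0.193). The κB factors NFKB2 and RELB were higher in shBMAL1 (0.44 and 0.63, adjusted p = 2.77e-08 and 1.30e-07), and in shARNT they rose by 0.71 and 0.14 (adjusted p = 4.08e-12 and 0.0648), the latter not called with upper quartile factors.

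Upstream, 9 genes of interferon receptors and their proximal signalling gave 3 higher and 1 lower in shBMAL1 and 3 higher and 4 lower in shARNT (5 and 3 under library size alone). The receptor chain IFNGR1 for interferon-γ fell by 0.63 in shBMAL1 (adjusted p = 1.99e-09) and rose by 0.58 in shARNT (adjusted p = 9.92e-10), while its partner IFNGR2 fell by 2.10 in shARNT (adjusted p = 5.54e-19). Of 22 tested interferon-stimulated genes, 16 were higher and 4 lower in shBMAL1, with a median of 0.46. In shARNT 9 were higher and 11 lower, with a median of -0.20 that was 0.04 under library size alone, where 10 were higher and 7 lower. The median of all genes in shARNT under that scaling was 0.23. For comparison with both lists, 31.9% of all genes were higher and 31.5% lower in shBMAL1, and 40.5% and 41.3% in shARNT. The interferon-stimulated list split in shARNT: GBP1, a GTPase that interferon-γ induces strongly, rose by 1.33 (adjusted p = 5.53e-14) and IFIT3 by 1.37 (adjusted p = 3.34e-11), while BST2 (tetherin) fell by 2.60 (adjusted p = 1.15e-20) and IFI6 by 3.27 (adjusted p = 5.28e-17). Among 8 tested genes that repress class I or promote its turnover, 5 were higher and 2 lower in shBMAL1, and 6 were higher and 1 lower in shARNT. EZH2, the methyltransferase of the Polycomb complex, fell by 0.35 in shBMAL1 and rose by 0.44 in shARNT (adjusted p = 0.00422 and 0.000183). Its partners EED and SUZ12 were higher in both, by 0.35 and 0.17 in shBMAL1 (adjusted p = 0.00290 and 0.0467) and by 0.29 and 0.63 in shARNT (adjusted p = 0.00707 and 4.61e-08). WWP2, a ubiquitin ligase, rose by 2.23 in shARNT (adjusted p = 2.20e-18).

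Molecules that resemble class I were mostly lower in shARNT. Of 10 tested genes, 6 were higher and 1 lower in shBMAL1, and 1 was higher and 8 lower in shARNT. All genes gave 31.9% and 31.5%, and 40.5% and 41.3%. HFE, the class I-like protein of iron regulation that also needs β2-microglobulin, rose by 0.48 and fell by 1.35 (adjusted p = 3.07e-06 and 5.40e-13), and MR1, which presents vitamin B metabolites, rose by 0.30 and fell by 0.56 (adjusted p = 7.89e-05 and 1.40e-08). PROCR, the endothelial protein C receptor with a class I-like fold, rose by 0.39 and fell by 1.79 (adjusted p = 2.66e-06 and 1.44e-16). MICA and MICB, the stress ligands of NKG2D, both rose in shBMAL1 (0.29 and 0.49, adjusted p = 0.00117 and 2.79e-05), but in shARNT MICA fell by 0.37 (adjusted p = 5.40e-05) and MICB rose by 0.90 (adjusted p = 1.78e-09). AZGP1, which has a class I fold, went from 89.9 ± 1.92 CPM to 32.1 ± 3.03 and 0.926 ± 0.357 CPM, a fall of 1.49 and 6.60 (adjusted p = 2.10e-12 and 2.36e-20).

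Of 10 tested class II genes, 5 were higher and 2 lower in shBMAL1, and 3 were higher and 6 lower in shARNT (4 and 5 under library size alone). CIITA, the class II counterpart of NLRC5, was at 1.15 ± 0.210, 4.11 ± 0.820 and 2.20 ± 0.299 CPM and rose by 1.84 and 0.93 (adjusted p = 2.74e-07 and 0.000666). HLA-DRB1, a class II chain and among the 2 genes lower in shBMAL1, fell by 0.66 and 2.79 (adjusted p = 2.17e-06 and 1.30e-15). CD74, among the 5 higher there, rose by 1.40 in shBMAL1 (adjusted p = 6.12e-05). In shARNT CD74 fell by 0.65 (adjusted p = 0.0383), which was not called under library size alone. Of 7 checkpoint ligands, 4 were higher and 2 lower in shBMAL1 and 2 were higher and 2 lower in shARNT. Beside both lists, 31.9% of all genes were higher and 31.5% lower in shBMAL1, and 40.5% and 41.3% in shARNT. CD274, which encodes PD-L1, was at 2.38 ± 0.599 CPM in shControl and fell by 1.07 in shBMAL1 (adjusted p = 0.000347), and CD276 (B7-H3) rose by 0.36 and fell by 0.69 (adjusted p = 6.46e-07 and 1.78e-11).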

How the data were processed

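The 9 stranded mRNA libraries of A498 cells were sequenced as paired-end reads of 100 bases. The authors deposited expected counts per gene, that is, reads per gene without normalization, some of them fractional where genes overlap. The study's methods name SeqMan NGen, ArrayStar and GRCh37, whereas the submitters' processing notes name STAR, DESeq2 and hg38; which of them made the table, and whether counting used strand or counted reads or pairs, is not given in the sources used here. Gene positions are from GENCODE 44 lifted to GRCh37 and promoters from RefSeq GRCh38.p14. A deposited value of 0.05 stood for no reads and was set to 0, expected counts were rounded, and 43 names on more than 1 row were summed. All 9 libraries entered 1 fit in edgeR 4.0.16 (TMM, filterByExpr, quasi-likelihood F-test, R 4.3.3), with calls at a Benjamini-Hochberg adjusted p under 0.1. Intervals use 6 residual and 13.3 prior degrees of freedom. No batch is labelled, and p-values measure the spread between these libraries alone. Alternatives included DESeq2 1.42.0, other scalings, halved counts, no filter, and each library left out. The script was tested on simulated data. The 9 genes and the pathway lists were chosen with earlier results of these data known. The rule for named genes took the 9 and the targeted genes, allowed any tested gene of the proteasome, loading, regulator and class I-like lists, and added from each other list the 2 called genes of smallest p per direction and contrast, with the 5 genes of most similar pattern. EED, SUZ12, KRT18 and PAX8 were named after their values were seen. Some genes of the lists are not reported here, so the heavy chain sum covers the 5 chains named.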

Additional observations from a re-analysis of the deposited data

Results flagged for a closer look

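All 9 genes were flagged because their effect differed between the depletions, as tested by the direct contrast of shARNT with shBMAL1, which uses no shControl library. The log2 differences, shARNT minus shBMAL1, were -0.88 for HLA-B, -0.58 for HLA-C, -0.82 for HLA-E, -0.50 for HLA-F, -0.95 for B2M and -0.98 for TAPBP, and 0.88 for TAP1, 0.25 for TAP2 and 0.89 for NLRC5. In each case the 3 libraries of one depletion lay on one side of the 3 libraries of the other in CPM. The share of all genes that separated in this way was not counted, so the separation is not shown to be particular to these genes. In the same contrast 81.2% of all tested genes were called.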

How the results depend on the processing

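Of 519 values of the 9 genes over 20 other settings, 496 kept their direction and their side of the threshold. Of the other 23, 11 were calls lost to a minimum of 1.5-fold: HLA-C, B2M, TAP1, TAP2, TAPBP and NLRC5 in shBMAL1, HLA-C and B2M in shARNT, and HLA-C, HLA-F and TAP2 in shARNT against shBMAL1. The other 12 follow. HLA-B in shARNT was positive under library size alone (0.24), RLE factors (0.0025), DESeq2 (0.0027) and without shControl replicate 2 (0.010), shARNT replicate 1 (0.018) or shARNT replicate 3 (0.0068), and only the first was called. HLA-E in shBMAL1 was negative with upper quartile factors (-0.012) and without shBMAL1 replicate 2 (-0.038), not called in either. With 1 library left out at a time, HLA-E there ranged from -0.038 to 0.046 and HLA-B in shARNT from -0.026 to 0.018. HLA-F in shBMAL1 was called with upper quartile factors (-0.12, adjusted p = 0.0706), without shBMAL1 replicate 2 (-0.13, adjusted p = 0.0686) and with overlapping rows summed, so 2 of the 9 were lower there instead of 1. HLA-C in shARNT was not called with library size as the only scaling (-0.05), and the cause of these changes was not tested further than the shift of all genes already given.

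A minimum of 1.5-fold, which by construction asks for more than a difference, left 1 gene higher and 0 lower in shBMAL1. In shARNT it left 3 lower, with TAP1, TAP2 and NLRC5 still called higher. At that minimum 3656 of all 15551 tested genes were called in shBMAL1 and 8299 in shARNT. The sum of 5 heavy chains (0.53 and -0.21) was no longer called in either depletion. With library size as the only scaling that sum was 0.024 in shARNT, not called. Leaving out each library in turn gave 1 to 2 genes lower in shBMAL1, and ranges of 0.51 to 0.56 and -0.23 to -0.20 for that sum. Replicate numbers did not pair the samples: the 9 same-numbered pairs correlated at -0.041 to 0.0749 after removal of group means. With the replicate block, 9832, 12683 and 12592 genes were called in the 3 contrasts, against 9851, 12722 and 12630. The block changed no call among the 9 genes. The lowest counts among the 9 were those of NLRC5, at 286 to 1100.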
